A study of Mus musculus with 24 samples.

Results

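The Cyp2b cytochromes of mouse liver were followed through 5 genes, Cyp2b9, Cyp2b10, Cyp2b13, Cyp2b19 and Cyp2b23. They were read from the 8 array probes that carry exactly those gene names, out of 56605 probes in all, and are 5 genes beside 18338 gene symbols with a measured probe. Cyp2b9 and the related genes had been taken up because Cyp2b9 showed the largest difference between the HFoleic and reference groups in these same arrays. For the Cyp2b probes that contrast is therefore described without a test. HFepa is set against the same reference and HFoleic arrays, so the p-values of those comparisons are not independent of the choice.

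Cytochromes of the Cyp2b subfamily are haem enzymes of the endoplasmic reticulum that oxidise drugs, steroids and fatty acids. In hepatocytes they are known as targets of the constitutive androstane receptor (CAR, gene Nr1i3), a nuclear receptor that moves into the nucleus after exposure to drugs such as phenobarbital and pairs there with the retinoid X receptor. Cyp2b10 is the classic phenobarbital-induced member, Cyp2b9 and Cyp2b13 are known to be expressed mainly in female liver, and Cyp2b19 is known from skin. The genes lie together with Cyp2a relatives in a cytochrome cluster of chromosome 7.

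The study asked how an obesogenic diet acts on the liver of mice whose earlier generations had been supplemented with eicosapentaenoic acid (EPA). The 24 animals were male C57Bl6J mice, 1 liver and 1 Agilent array in 1 colour (Cy3) each, bred for 3 generations on a growing diet and killed in the fasting period under isoflurane. The 9 reference mice (STD_Cont) were of the control lineage, supplemented with high-oleic sunflower oil, and were given a low-fat diet. The 8 HFoleic mice (HFD_Cont) were of the same lineage and were given the diet high in fat and sucrose. The 7 HFepa mice (HFD_O3) were of the lineage supplemented with EPA-rich fish oil and were given that obesogenic diet too. HFepa and reference thus differ in diet and lineage at once, and no mice of the EPA lineage under the low-fat diet were among the 24.

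Between 28804 and 34432 probes per array were well above background. All 12 hepatocyte marker genes were well above background on all 24 arrays, and 20 of 31 marker genes of other cells and tissues were too, while 1 (Cpa1, exocrine pancreas) was so on no array. The summed signal of those other markers ranged from 15.87 to 16.75 log2 units in the reference, from 16.01 to 16.36 in HFoleic and from 16.07 to 16.43 in HFepa. In HFoleic against reference, limma called 3 of 12 hepatocyte markers lower and 0 higher, beside 3.71% and 4.84% of all genes. They were Cps1 (-0.89 log2 units, adjusted p 0.00166), Pck1 (-0.74, 0.000602) and Tat (-0.63, 0.00858). Of 22 other markers measured, 1 was called higher (Lrat, 0.56, limma adjusted p 0.0015) and 0 lower. In both HFepa comparisons 0 markers of either list were called. Reference replicate 5 stood apart in several genes of sex-biased expression, and differences that it moved by over 1.5 times are given without it too. In whole liver, fewer cells of a type and less RNA per cell cannot be told apart.

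Of the 8 Cyp2b probes, 2 passed the filter on dim probes, which asked for signal well above background in 75% or more of a group's arrays: the Cyp2b9 probe and 1 of 2 Cyp2b10 probes. In the mm9 build the Cyp2b9 probe lies at chr7:26995607-26995666 on the plus strand, from base 1804 of its transcript. The Cyp2b10 probe that passed lies near the 3′ end of the transcript (from base 1756) at chr7:26711522-26711581, and is called the Cyp2b10 3′ probe. The second Cyp2b10 probe lies upstream, from base 1094, at chr7:26702056-26702115, and is called the Cyp2b10 coding probe. The array annotation for the Cyp2b9 probe also lists a Cyp2b10 transcript, so what each probe could read matters here. The longest run shared by the Cyp2b9 probe and the Cyp2b10 3′ probe is 10 bases, shown in capitals in the parts of both probes that hold it (bases 1 to 30 and 31 to 60), with the coding probe shown whole because its values part from those of the 3′ probe. No other probe of the array shares 14 or more bases with the Cyp2b9 probe or the Cyp2b10 3′ probe.
Cyp2b9 probe, bases 1 to 30: TAAGGTCTGAtttctatgtctacagacttg
Cyp2b10 3′ probe, bases 31 to 60: gtgctaatggactctgtaTAAGGTCTGAat
Cyp2b10 coding probe: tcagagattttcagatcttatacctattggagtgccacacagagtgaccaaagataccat

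All 5 genes had a RefSeq promoter window (GRCm38.p6, 250 bases before to 50 bases after the gene start). The windows of Cyp2b9 and Cyp2b13 were identical at 298 of 300 bases and differed by T48C and C104T (Cyp2b9 base, position from the start of the window, Cyp2b13 base). Shifted without gaps to its best fit, the Cyp2b10 window matched that of Cyp2b9 at 147 of 299 bases. The upstream part of the window is printed for the 3 genes whose signal rose above background in more than 1 mouse, all on the plus strand. Capitals mark AGGTCA, the core hexamer that nuclear receptors bind, which was searched on both strands. Of the 5 windows it was found in 4, those of Cyp2b9, Cyp2b13, Cyp2b19 and Cyp2b23, and not in that of Cyp2b10, and 16.3% of 32851 promoter windows held it on either strand. Sequence farther upstream was not searched, and the near-identical windows of Cyp2b9 and Cyp2b13 are not separate finds.
Cyp2b9, chr7:26173159-26173301: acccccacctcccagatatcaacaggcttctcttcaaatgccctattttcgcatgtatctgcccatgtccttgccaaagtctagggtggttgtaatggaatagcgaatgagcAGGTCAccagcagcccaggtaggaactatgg
Cyp2b13, chr7:26061245-26061387: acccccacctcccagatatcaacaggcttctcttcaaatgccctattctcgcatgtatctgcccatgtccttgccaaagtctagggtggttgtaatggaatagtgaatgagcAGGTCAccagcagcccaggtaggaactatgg
Cyp2b10, chr7:25897408-25897550: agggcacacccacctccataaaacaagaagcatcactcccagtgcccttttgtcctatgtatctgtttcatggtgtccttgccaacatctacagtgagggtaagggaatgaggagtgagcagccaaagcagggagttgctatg

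Cyp2b9, a cytochrome of steroid and fatty acid oxidation, was high in every HFoleic mouse relative to most reference mice. Its log2 signal in the 9 reference mice was lowest at 5.52, had a median of 6.08 and reached 10.75. In the 8 HFoleic mice it was lowest at 7.27, with a median of 9.83 and a highest value of 11.69. The reference mice fell into 7 mice between 5.52 and 6.37 and a pair of high mice, replicate 8 at 8.51 and replicate 5 at 10.75. The pair made the groups overlap, and 6 of 8 HFoleic mice lay within the reference range. The difference in means was 2.99 log2 units (7.97-fold), and it was 3.49 without reference replicate 5. These differences are a description, since they led to the choice of the genes.

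The 7 HFepa mice spread over nearly the whole range of the other groups, with the lowest Cyp2b9 signal of all 24 mice at 5.28, a median of 7.57 and the highest of all at 12.48 (replicate 4). The order of the group means was reference (6.77 ± 1.74, SD, n = 9), HFepa (7.95 ± 2.43, SD, n = 7) and HFoleic (9.77 ± 1.37, SD, n = 8). Cyp2b9 was 1.18 log2 units higher in HFepa than in the reference, with a 95% interval of the limma fit from -0.62 to 2.97 and an adjusted p of 0.611. A difference between these neighbours in the order was thus neither shown nor excluded. The difference in means was 0.42 without HFepa replicate 4 and 1.67 without reference replicate 5.

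Between the lineages under the obesogenic diet, Cyp2b9 differed by -1.82 log2 units in HFepa against HFoleic, whose arrays had a part in the choice of the gene. Only 1 of 7 HFepa mice exceeded the HFoleic mean, and 3 of 7 lay within the HFoleic range. The limma fit gave an interval from -3.66 to 0.03, an unadjusted p of 0.053 and an adjusted p of 0.522, so the difference was not past the threshold. It was -2.57 without HFepa replicate 4.

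The Cyp2b10 3′ probe followed the same order at a smaller size. Its log2 signal in the reference was lowest at 5.52, with a median of 6.55 and a highest value of 12.13 in replicate 5, which was the highest of all 24 mice. In HFoleic it ran from 7.11 through a median of 9.40 to 11.28, and in HFepa from 5.42 through 7.58 to 12.00 in replicate 4. All 8 HFoleic mice lay within the reference range because of the single mouse at 12.13. The mean rose in the order of reference (7.21 ± 2.0, SD, n = 9), HFepa (8.05 ± 2.20, SD, n = 7), HFoleic (9.40 ± 1.32, SD, n = 8).

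The difference of the Cyp2b10 3′ probe between HFoleic and reference was 2.19 log2 units (4.55-fold), or 2.80 without reference replicate 5. HFepa lay 0.84 log2 units above the reference (limma, 95% interval -0.96 to 2.64, adjusted p 0.748), which was 0.18 without HFepa replicate 4 and 1.45 without reference replicate 5. HFepa against HFoleic gave -1.35 log2 units (interval -3.20 to 0.50, adjusted p 0.649). In HFoleic against reference 7.23% of all probes were called, and no call is given for the Cyp2b probes, since the genes were chosen on that contrast. The threshold was passed by 0 of 2 probes in HFepa against reference, where 0.393% of all probes were called, and by 0 of 2 in HFepa against HFoleic, where limma called 0% (9.7% at an unadjusted p under 0.05, among them 0 Cyp2b probes, against 13.5% and 0 Cyp2b probes in HFepa against reference).

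**Figure D1:**
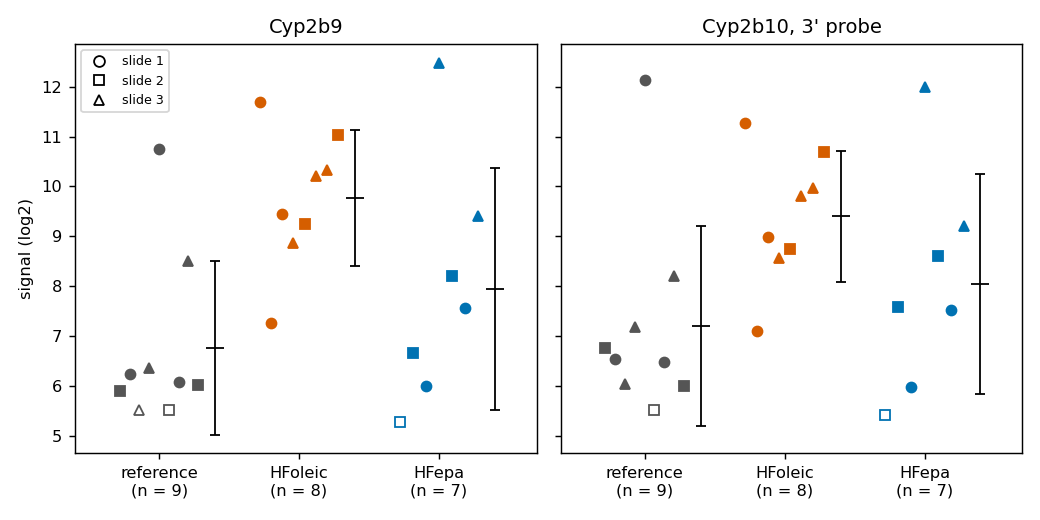
Log2 signal of the Cyp2b9 probe (left) and the Cyp2b10 3′ probe (right) in each mouse, by group on the horizontal axis, with symbols for the slide, open symbols for arrays not well above background, and the mean and SD of the group beside the points. The HFoleic mice start at 7.27 for Cyp2b9, the reference holds 7 mice at or under 6.37 and a pair of high mice, and HFepa spans 5.28 to 12.48.

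The spread between mice was itself large. Within groups, the residual SD was 1.86 log2 units for Cyp2b9 and 1.87 for the Cyp2b10 3′ probe, ranks 6 and 5 of 30003 probes, against a median of 0.18. Choice by the largest difference favours probes that vary between mice, so these ranks are not independent of that choice. The arrays lay on 3 slides that each held all groups. For Cyp2b9, the within-slide differences on slides 1, 2 and 3 came to 1.78, 4.32 and 3.01 log2 units in HFoleic against reference. In HFepa against reference they came to -0.90, 0.90 and 4.14, and in HFepa against HFoleic to -2.68, -3.42 and 1.13, so both HFepa differences changed direction between slides. The Cyp2b10 3′ probe did likewise, with 0.74, 3.62 and 2.31 in HFoleic against reference, -1.63, 1.1 and 3.46 in HFepa against reference and -2.37, -2.52 and 1.16 in HFepa against HFoleic. Slide 3 held HFepa replicates 4 and 7, the highest HFepa mice, and each of these values rests on 2 or 3 mice per group.

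The same mice were high or low for both brighter probes. After subtracting group means, Cyp2b9 and the Cyp2b10 3′ probe correlated across the 24 mice with Pearson's r = 0.977 and Spearman's rho = 0.937 (1 pair tested, permutation p 2e-05 for each, the smallest that the resamples can give, which adjustment over 1 pair leaves as it is). Without the 2 mice farthest from the Cyp2b9 median, HFepa replicate 4 and HFoleic replicate 1, r was 0.970. It was 0.971 among the reference mice, 0.998 among the HFoleic mice and 0.986 among the HFepa mice, and 0.992, 0.951 and 0.978 within slides 1, 2 and 3. The probes share a gene family, the array and, by the array annotation, a listed Cyp2b10 transcript, and the part of shared binding in the correlation was not tested.

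The offset between the signals has no meaning in itself, since probes differ in brightness, but it varied between mice. The log2 signal of the Cyp2b10 3′ probe minus that of Cyp2b9 lay between -0.50 and -0.16 in the 8 HFoleic mice, between -0.30 and 1.37 in the reference mice and between -0.47 and 0.90 in the HFepa mice. It was largest in reference replicate 5, where Cyp2b10 was highest of all mice and Cyp2b9 was not. In HFepa replicate 4, the other very high mouse, the offset was -0.47, like that of the HFoleic mice.

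**Figure D2:**
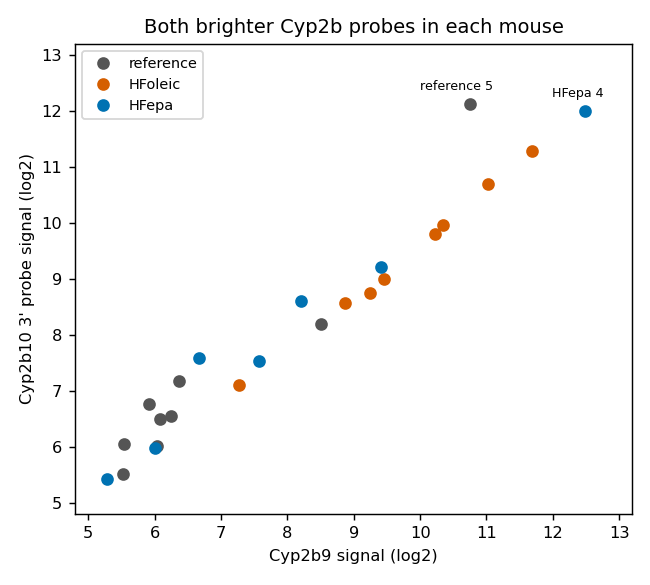
Log2 signal of the Cyp2b10 3′ probe (vertical) against that of the Cyp2b9 probe (horizontal), 1 point per mouse, coloured by group. The points lie along a single band (r = 0.977 after removal of group means), with reference replicate 5 above it at 10.75 and 12.13.

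The Cyp2b10 coding probe did not share the order of groups seen with the 3′ probe. It was well above background on 2 of 24 arrays, reference replicates 4 and 5, and on none of the HFoleic or HFepa arrays. On the scale of all probes its log2 signal was 7.70 in reference replicate 5 and 6.30 in reference replicate 4. It lay between 5.0 and 5.52 in the 8 HFoleic mice and between 4.79 and 5.42 in the 7 HFepa mice, including HFepa replicate 4 (5.05), in which the 3′ probe read 12.00. The probes for Cyp2b10 therefore disagreed in the obesogenic groups, and the level of the gene there is uncertain. Only reference replicate 5 was high by both.

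Cyp2b13, the close relative of Cyp2b9 with the nearly identical promoter window, was dim. Its probe (chr7:26880905-26880964, mm9) was well above background on 3 of 9 reference, 3 of 8 HFoleic and 1 of 7 HFepa arrays. Its log2 signal ran from 5.21 to 5.74 (median 5.45) in the reference, from 5.35 to 6.60 (median 5.70) in HFoleic and from 5.29 to 7.01 (median 5.43) in HFepa. The highest mice, HFepa replicate 4 and HFoleic replicate 1, were also those with the highest Cyp2b9.

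Across mice, with group means removed and on the scale of all probes, Cyp2b13 correlated with Cyp2b9 at r = 0.74 (rho = 0.56, permutation adjusted p 0.00144 and 0.00576 over 6 pairs among 4 probes), falling to 0.53 without the 2 mice farthest from the Cyp2b9 median. With the Cyp2b10 3′ probe r was 0.70 (rho = 0.57, permutation adjusted p 0.00376 and 0.00576). It was 0.59 without the 2 mice farthest from the median of the 3′ probe, reference replicate 5 and HFepa replicate 4. The Cyp2b10 coding probe correlated with Cyp2b9 at 0.54 (rho = 0.56, permutation adjusted p 0.0256 and 0.00576), 0.68 without the 2 mice farthest from the Cyp2b9 median and 0.27 without reference replicate 5. With the 3′ probe of its own gene it gave r = 0.66 (rho = 0.59, permutation adjusted p 0.00606 and 0.00576). Its r was 0.43 without the 2 mice farthest from the median of the 3′ probe, 0.33 without reference replicate 5 and 0.76 without HFepa replicate 4. With Cyp2b13 it gave r = 0.22 (rho = 0.27, permutation adjusted p 0.242 and 0.209). The pairs with dim probes were chosen after their values were seen.

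Cyp2b23 and Cyp2b19 were at the background. The Cyp2b23 probe (chr7:27450250-27450309, minus strand, mm9) was well above background on 1 of 24 arrays, by a spot flagged as an outlier and left out, and its log2 signal ran from 4.98 to 5.69 over the remaining 23 arrays. The 3 Cyp2b19 probes lie at chr7:27556890-27556949, chr7:27557545-27557604 and chr7:27550443-27550502. They were well above background on 0, 1 and 0 of 24 arrays and ran from 4.75 to 5.56, from 5.13 to 5.93 and from 4.63 to 5.17. For these genes a difference between groups was not detectable at this signal, which does not show that they did not differ.

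**Figure D3:**
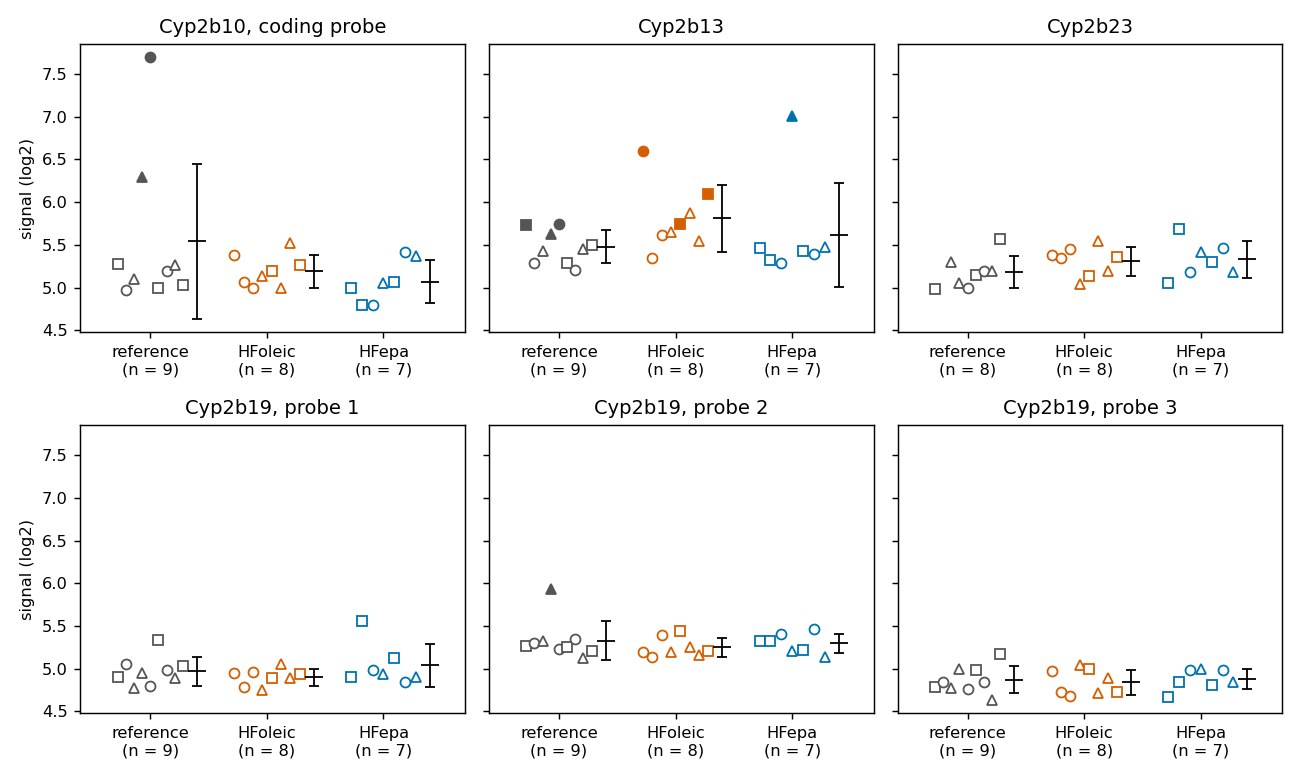
Log2 signal, on the scale of all probes, of the 6 Cyp2b probes that did not pass the filter, 1 symbol per mouse by group (circle, square and triangle for slides 1, 2 and 3; filled where well above background), with the mean and SD of the group beside the points. The Cyp2b10 coding probe is filled in reference replicates 4 (6.30) and 5 (7.70) only, and Cyp2b13 reaches 7.01 in HFepa replicate 4.

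The regulators of the family were described from a list of 26 genes of the CAR axis, of which 25 were measured. Nr1i3, which encodes CAR, had a mean log2 signal of 11.45 ± 0.72 in the 9 reference mice, 11.83 ± 0.19 in the 8 HFoleic mice and 11.83 ± 0.14 in the 7 HFepa mice (± SD). It was lowest of all in reference replicate 5, at 9.58, the mouse with the highest Cyp2b10 signal. The difference from the reference did not pass the test by limma in either obesogenic group (0.38 log2 units, adjusted p 0.314, for HFoleic and 0.37, adjusted p 0.485, for HFepa). Without reference replicate 5 both differences were 0.14 (adjusted p 0.325 and 0.529).

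In HFoleic against reference, 1 of the 25 genes rose and 2 fell, where 4.84% of all genes were called higher and 3.71% lower, and the median difference was 0.04 against 0 over all genes. The glucocorticoid receptor gene Nr3c1, an upstream regulator of Nr1i3, rose by 0.36 log2 units (limma adjusted p 0.0035). Gadd45b, a stress protein known as a coactivator of CAR, fell by 1.14 (adjusted p 0.0168). The coactivator gene Ppargc1a fell by 0.54 (adjusted p 0.0296), a call lost in 6 of 24 fits that each left out 1 mouse. The paper's RT-qPCR marked no change of Ppargc1a in either obesogenic group against the reference. Nr0b2, which encodes the corepressor SHP, was 0.81 log2 units higher and did not pass the test (adjusted p 0.0607). It passed without reference replicate 8 (0.99, limma adjusted p 0.00701), and was 0.70 without reference replicate 6 (adjusted p 0.112). The growth factor receptor gene Egfr differed by -0.50 (adjusted p 0.323).

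In both HFepa comparisons 0 of the 25 genes were called by limma, where 0.202% of all genes were called in each direction against the reference and 0% against HFoleic (8 and 2 of the 25 at an unadjusted p under 0.05, beside 14.5% and 10.2% of all genes). The largest differences between HFepa and HFoleic were those of Gadd45b at 1.29 log2 units (adjusted p 0.161) and Nr0b2 at -0.94 (adjusted p 0.25). Ppargc1a differed by -0.62 in HFepa against reference (adjusted p 0.07). The difference was -0.68 without reference replicate 8 (limma adjusted p 0.0229) and -0.51 without reference replicate 5 (adjusted p 0.0957).

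The CAR targets outside the family were drug-metabolising enzymes and transporters. Of 46 listed genes 43 were on the array by name and 41 were measured. In HFoleic against reference 1 rose and 1 fell, beside 4.84% and 3.71% of all genes, with a median difference of 0.06 against 0 over all genes. At an unadjusted limma p under 0.05 there were 15 of the 41, beside 23.3% of all genes. Aldh1a1, a retinaldehyde dehydrogenase, rose by 0.59 log2 units (limma adjusted p 0.0112). Por, the reductase that passes electrons to microsomal cytochromes, Cyp2b enzymes included, fell by 0.67 (adjusted p 0.000253). Its log2 signal lay between 15.53 and 15.88 in the reference and between 14.62 and 15.40 in HFoleic, so the groups did not overlap.

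Other targets moved with single mice. Akr1b7, an aldo-keto reductase, differed by -1.43 log2 units in HFoleic (adjusted p 0.256), with a reference median of 6.12 and 1 reference mouse, replicate 4, at 13.59, without which the difference was -0.61. The estrogen sulfotransferase gene Sult1e1 differed by -1.05 (adjusted p 0.203), with reference replicate 2 at 10.45 against a group median of 6.29 and a difference of -0.62 without that mouse. Cyp2c54, a cytochrome, was 0.88 higher (adjusted p 0.18), with reference replicate 5 at 11.24 against a median of 15.14. Without that mouse the difference was smaller, at 0.44, and passed the test (limma adjusted p 0.0184). Cyp3a11, a main drug- and steroid-oxidising cytochrome, differed by -0.86 (adjusted p 0.0505), and by -0.97 without HFoleic replicate 6 (adjusted p 0.0336). Without HFoleic replicate 2, the lowest HFoleic mouse for this gene at 11.18, the difference was -0.61 (limma adjusted p 0.0779). In HFepa against reference and against HFoleic 0 of the 41 genes were called by limma (9 and 2 at an unadjusted p under 0.05), beside 0.202% of all genes called each way and 0% (14.5% and 10.2% unadjusted).

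Because Cyp2b9 and Cyp2b13 are known as female-biased, lists of sex-biased liver genes were set beside them, all mice being male. Of 24 female-biased genes, 16 were measured, and in HFoleic against reference 2 rose and 5 fell (4.84% and 3.71% of all genes). The rises were those of the organic anion transporter genes Slc22a27 (1.69 log2 units, limma adjusted p 0.00399) and Slc22a26 (0.73, 0.0122). The falls were those of Nipal1, a magnesium transporter gene (-1.44, 0.000512), Cyp3a16 (-0.90, 0.0359), Fmo2 (-0.83, 0.00425), Cyp4a14 (-0.71, 0.000718) and Cyp17a1 (-0.61, 0.0398), 4 oxygenase genes of steroid, drug or fatty acid metabolism. The call of Cyp3a16 was lost in 9 and that of Cyp17a1 in 11 of 24 fits without 1 mouse, reference replicate 5 among them for both.

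Of the 24 male-biased genes measured, 0 rose and 3 fell in HFoleic against reference, beside 4.84% and 3.71% of all genes. The fatty acid hydroxylase genes Cyp4a12a and Cyp4a12b fell by 1.04 and 0.98 log2 units (limma adjusted p 0.0349 and 0.0491), calls lost in 12 and 17 of 24 fits without 1 mouse, and Cyp2u1 fell by 0.43 (adjusted p 0.00993). Hsd3b5, a steroid reductase gene, was 1.57 higher (adjusted p 0.307), or 0.84 without reference replicate 5, and the transporter gene Slco1a1 was 0.89 higher (adjusted p 0.419), or 0.25 without that mouse. In both HFepa comparisons 0 genes of either list were called by limma, with 3 female-biased and 2 male-biased genes at an unadjusted p under 0.05 against the reference and 5 and 0 against HFoleic, beside 0.202% of all genes called each way and 0% (14.5% and 10.2% unadjusted).

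Over the 24 mice with group means removed, female-biased genes followed Cyp2b9 and male-biased genes ran the other way. Neither list did so in every mouse, and the male-biased genes not evenly in each group. The mean deviation of the 16 female-biased genes from their group means correlated with that of Cyp2b9 at r = 0.85 (rho = 0.79, permutation adjusted p 5e-05 for each over 5 lists, 24 mice). It was 0.81 without the 2 mice farthest from the Cyp2b9 median and 0.84 with slide means removed. For the 24 male-biased genes r was -0.73 (rho = -0.60, permutation adjusted p 0.000567 and 0.0032), -0.69 without the 2 farthest mice and -0.77 with slide means removed. Without reference replicate 5 and HFepa replicate 4 together, r was 0.71 and -0.42, with no p-value computed. In the reference the inverse relation of the male-biased genes rested on replicate 5, with a mean deviation of -1.22. Replicate 8, the other high reference mouse for Cyp2b9, deviated by 0.18. These relations were computed after the values of single mice were seen.

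The sizes, and in some mice the directions, differed between mice. In reference replicate 5 the mean deviation from the group means was 0.63 log2 units for female-biased and -1.22 for male-biased genes, and in HFepa replicate 4 it was 0.50 and -0.55. In HFoleic replicate 2, the lowest HFoleic mouse for Cyp2b9, it was -0.45 for female-biased and 0.29 for male-biased genes. It was smaller in HFepa replicate 1, the mouse with the lowest Cyp2b9 signal of all (-0.28 and 0.25), and in HFoleic replicate 1, the mouse with the second highest (0.23 and -0.17), than in reference replicate 5. Some mice went against the relation. HFepa replicate 7 deviated by 1.46 for Cyp2b9 and by -0.06 for female-biased genes, and HFepa replicate 2 by -1.27 and 0.22. HFoleic replicate 8 deviated by 1.27 for Cyp2b9, by 0.0 for female-biased and by 0.03 for male-biased genes. Reference replicate 5 had the lowest Hsd3b5 signal (5.28 against a reference median of 11.77) and the lowest Slco1a1 signal (5.99 against 11.80) of its group. HFepa replicate 4 was lowest of its group for both as well, at 9.53 and 10.43. The part of these genes' movement in the Cyp2b values was not tested.

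The remaining lists were related to Cyp2b9 to different extents. For the 41 CAR targets r was 0.60 (rho = 0.66, permutation adjusted p 0.00195 and 0.000933), 0.58 without the 2 farthest mice and 0.46 without Cyp2a4 and Cyp2a5. For the 25 genes of the CAR axis r was -0.33 (rho = -0.15, permutation adjusted p 0.119 and 0.491), and -0.10 without reference replicate 5. For the 7 measured genes of the surrounding Cyp2 cluster r was 0.84 (rho = 0.82, permutation adjusted p 5e-05 for each), 0.83 without the 2 farthest mice and 0.63 without Cyp2a4 and Cyp2a5. Cyp2a4 stands in 3 of these lists and Cyp2a5 in 2, so the lists are not independent.

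**Figure D4:**
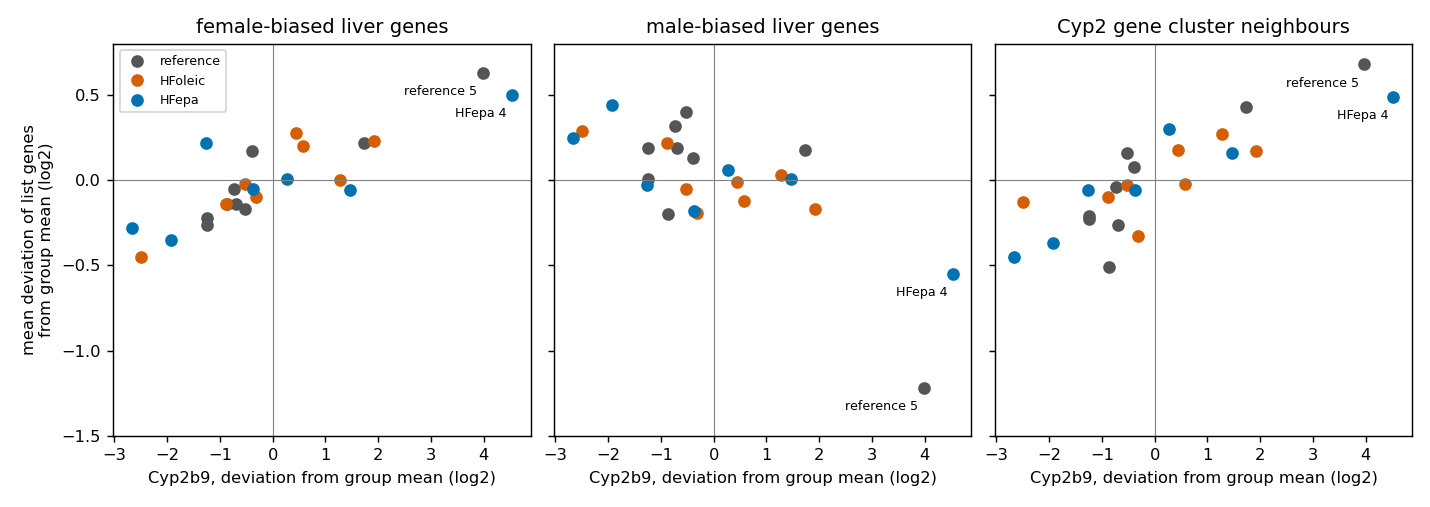
Mean deviation of the genes of 3 lists from their group means (vertical, log2 units) against the deviation of Cyp2b9 (horizontal, log2 units), 1 point per mouse, coloured by group. Reference replicate 5 and HFepa replicate 4 lie at the far right, at 0.63 and 0.50 for female-biased genes and at -1.22 and -0.55 for male-biased genes.

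The neighbours of the family in the chromosome 7 cluster were not called in any comparison (0 of 7 measured genes by limma in each, with 2, 0 and 0 at an unadjusted p under 0.05, beside 23.3%, 14.5% and 10.2% of all genes, in HFoleic against reference, HFepa against reference and HFepa against HFoleic). The largest differences between HFoleic and reference were those of the coumarin hydroxylase gene Cyp2a5 (0.50 log2 units, adjusted p 0.359), the steroid hydroxylase gene Cyp2a4 (0.47, adjusted p 0.447), Cyp2g1 (0.35, adjusted p 0.607, and 0.22 without reference replicate 3 or 0.56 without HFoleic replicate 3) and Cyp2a22 (0.27, adjusted p 0.225). Cyp2g1 was dim, well above background on 7 of 8 HFoleic, 5 reference and 3 of 7 HFepa arrays, and passed the filter by HFoleic alone. The median difference of the 7 genes was 0.27 against 0 over all genes.

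Among 17331 genes compared by their pattern between mice, those most like Cyp2b9 after removal of group means were Cyp2a4 (r = 0.87), Cyp2a5 (0.87), Plekhg5 (0.85), Ehmt2 (0.82) and Plgrkt (0.82), over 24 arrays. For the Cyp2b10 3′ probe they were Cyp2a4 (0.89), Cyp2a5 (0.88), Plekhg5 (0.87), Plgrkt (0.85) and Krt8 (0.85). Cyp2a4 and Cyp2a5 are near-identical paralogues, and their probes may read both. Without reference replicate 5 the values for Cyp2b9 were 0.83, 0.82, 0.80, 0.78 and 0.76. The genes that ran most against Cyp2b9 were Sh3tc2 (-0.88), Serpina3h (-0.86), Slc45a3 (-0.85) and the transcripts ENSMUST00000185009 (-0.88) and ENSMUST00000119351 (-0.85). These correlations are a description over mice that share arrays and slides.

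The level of Cyp2a5 shows what the likeness looks like. Its log2 signal was lowest at 14.50, with a median of 15.34, and reached 16.99 in replicate 5 of the reference. In HFoleic it ran from 15.50 in replicate 2 through a median of 15.95 to 16.40, and in HFepa from 14.21 in replicate 1 through 15.61 to 16.66 in replicate 4. The lowest HFoleic mouse and the lowest and highest HFepa mice were those that were lowest and highest for Cyp2b9. The highest HFoleic mouse (replicate 8) and the lowest reference mouse (replicate 1) were not, since for Cyp2b9 these were replicates 1 and 6.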

How the data were processed

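The authors deposited, for each of the 24 arrays, the text output of Agilent Feature Extraction (10.10.1.1, per the submitters' processing notes), in which, per the file headers, the signal and local background of a spot are raw intensities, and the processed signal is an intensity already corrected for background. They also deposited a filtered, quantile normalized log2 table of the arrays, whose filter is not given in the sources used here. The deposited marks (0 or 1) give outliers and signal well above background.

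Here log2 median signals were averaged per probe without outlier spots, probes marked well above background in 75% or more of a group's arrays were kept (30003 of 56605), and values were quantile normalized. Dim probes are given on the scale of all probes, normalized together. Limma (3.58.1, R 4.3.3; lmFit and eBayes, group means, 3 contrasts, all 24 arrays, two-sided) was adjusted by Benjamini-Hochberg over all kept probes, with calls at an adjusted p under 0.05. The fit was run on simulated data with normal noise and known shifts in HFoleic. That setting held no outlying mice, so it does not bear on the spread of the Cyp2b values. A gene of a list was read from its brightest kept probe. Correlations used 100000 resamples, two-sided (SciPy). Tables were handled with data.table (version 1.17.8), pandas and numpy, and figures drawn with matplotlib. The number of arrays limits the precision. Labels give each mouse as a separate sample.

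The genes and lists were chosen with earlier results of these data known. Named were every Cyp2b probe, list genes called or among the 4 with the largest differences, and the 5 genes most and least like Cyp2b9 and the 5 most like Cyp2b10. Probe names and coordinates (mm9) are those of the scanner files. Promoters are from RefSeq (GRCm38.p6), and coordinates of the builds were not mixed. Alternatives were the authors' log2 table, normexp background correction (offset 50), the processed signal less the 75th percentile, median centring, other filters, slide, slide row and replicate number as blocks, the methods' t-test, all probes of a gene averaged, and leaving out each mouse.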

Additional observations from a re-analysis of the deposited data

Results flagged for a closer look

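Single mice stood far from the rest of their group in 30 of 189 groups of values examined. These were the Cyp2b probes, the genes named by the rule for named genes, and the receptor genes Nr1i2 and Rxra. Unrelated values not chosen by their data would give about 9.4 by chance, and 14 of the 30 concerned reference replicate 5. Genes named for their likeness to Cyp2b9 were chosen by a pattern that includes this mouse. List genes were named for calls or large differences, which a single mouse can produce, and some are close relatives. The 30 can therefore not be weighed against the 9.4. In reference replicate 5, the Cyp2b10 3′ probe read 12.13 (next highest 8.20) and the Cyp2b10 coding probe 7.70 (next highest 6.30), with Cyp3a16 at 14.29, Cyp3a11 at 14.71, Ntrk2 at 10.82, Plekhg5 at 9.63 and Krt8 at 14.55 as high values. Low values in that mouse were Nr1i3 at 9.58, Cyp2c54 at 11.24, Hsd3b5 at 5.28, Slco1a1 at 5.99, Cyp4a12a at 12.33, Cyp4a12b at 12.63 and ENSMUST00000185009 at 11.88. In HFepa replicate 4, Cyp2b13 read 7.01 (next highest 5.47) and Hao2 read 6.68.

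The Cyp2b19 probes, which were at the background, had isolated high values at 5.34 (probe 1, reference replicate 6), 5.56 (probe 1, HFepa replicate 2) and 5.93 (probe 2, reference replicate 4). In HFoleic replicate 2, the lowest HFoleic mouse for Cyp2b9, Cyp3a16 at 10.77, Cyp3a11 at 11.18 and Nr1i3 at 11.45 were isolated low values and Sh3tc2 at 10.05 a high value. In reference replicate 4, Akr1b7 at 13.59 and Hao2 at 8.50 were isolated high values. The remaining isolated values were Cyp4a14 at 10.62 and Rxra at 15.5 in HFepa replicate 2, Pck1 at 16.14 in reference replicate 8, Lrat at 7.43 in HFoleic replicate 1 and Cyp2c54 at 15.17 in HFoleic replicate 3.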

How the results depend on the processing

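Cyp2b9 kept the direction of each difference in all fits over the 3 slides together, and the Cyp2b10 3′ probe differed by -0.19 log2 units between HFepa and reference within slide row 1. In fits that each left out 1 mouse, HFoleic minus reference ran from 2.72 to 3.49 log2 units, HFepa minus reference from 0.422 to 1.67 (limma adjusted p 0.39 to 0.871) and HFepa minus HFoleic from -2.57 to -1.37 (adjusted p 0.19 to 0.769). Within single slides HFepa minus reference was -0.90 on slide 1 and 4.14 on slide 3, and HFepa minus HFoleic was 1.13 on slide 3; the cause was not tested. The correlation of Cyp2b9 with the Cyp2b10 3′ probe ran from 0.972 to 0.982 without 1 mouse and from 0.959 to 0.979 under the other settings. Without reference replicate 5 and HFepa replicate 4 together, a setting chosen after seeing the data, it was 0.966.

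Over the 5 lists of CAR and sex-biased genes and neighbours, 15 calls in HFoleic against reference became 9 by the methods' t-test, 10 with no filter on dim probes and 10 to 22 without 1 mouse (10 without reference replicate 1 or 7 or HFoleic replicate 8, 22 without reference replicate 8). The 0 calls in HFepa against reference became 1 with the slide row as a block and 0 to 3 without 1 mouse (3 without reference replicate 8, and 1 without reference replicate 3 or HFepa replicate 5), and the 0 calls in HFepa against HFoleic became 0 to 1 (1 without HFoleic replicate 6 or HFepa replicate 7). Same-numbered mice of different groups did not deviate together (r from -0.30 to 0.35 over 22 pairs, 2 mice best with their own number). With the replicate block, Cyp2b9 differed by 2.90, 1.29 and -1.61 log2 units in the 3 comparisons, the list calls were 12, 0 and 0, and the correlation was 0.979. Signal over background limits Cyp2b13, Cyp2b19, Cyp2b23 and the Cyp2b10 coding probe.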
